A study of Rattus norvegicus with 10 samples.

Results

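The miRNAs described here were rno-miR-199a-5p and rno-miR-199a-3p, the 2 arms of the miR-199a hairpin, and rno-miR-214, which is made from the same long transcript. They were chosen by name, as both arms of miR-199a and miR-214, with their saline and chronic morphine intensities already known, and they make up 3 of the 679 rat miRNA probes on the array. Their difference between the groups is therefore given as a description and was not tested. All rats were wild-type male Sprague Dawley animals of 2 months. The chronic morphine group (n = 5) was injected intraperitoneally with morphine, 2 injections on each of 5 days, with single doses of 10, 20 and 30 mg/kg on the first 3 days and 40 mg/kg afterwards, and the saline group (n = 5) received saline on the same schedule. The medial prefrontal cortex (mPFC) was dissected, and total RNA of each rat was measured on 1 array, so that each sample was bulk tissue holding every cell type in the dissected piece. The values are background-subtracted spot intensities on a linear scale, averaged over the 4 spots of a probe and scaled between arrays, and an intensity of 30 is the detection limit used throughout.

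miR-199a and miR-214 are processed from Dnm3os, a non-coding RNA transcribed from the strand opposite to Dnm3, the gene of dynamin 3. In mouse this transcript is switched on in embryonic mesenchyme by the transcription factor Twist1, and its miRNAs are typical of fibroblasts, pericytes, smooth muscle and other cells of connective tissue, where they act on skeletal growth, fibrosis and muscle repair. miR-199a-5p is known as a regulator of caveolin 1 in fibroblasts, miR-199a-3p as a promoter of cardiomyocyte proliferation, and miR-214 as a repressor of Ezh2, a histone methyltransferase, in muscle. They are not counted among the miRNAs that define neurons.

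The mature sequences are shown because each miRNA selects its targets through its seed, bases 2 to 8, which is in capitals. They are the RefSeq sequences of the GRCr8 rat assembly, in which the miR-214 of the array is named miR-214-3p.
miR-199a-5p: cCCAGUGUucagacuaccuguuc
miR-199a-3p: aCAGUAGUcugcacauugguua
miR-214: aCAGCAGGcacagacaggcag
The miR-199a arms lie at chr13:77116255-77116277 and chr13:77116294-77116315, and miR-214 at chr13:77121713-77121733, all on the plus strand. The Mir214 hairpin begins after 5329 bases that follow the end of miR-199a-3p, and all of these sequences fall within the span of Dnm3, which is on the minus strand. The 3 seeds differed, and each was the only one of its kind among the 724 mature rat entries. miR-199a-3p and miR-214 begin with the same 4 bases, and their seeds are equal at 5 of 7 positions, whereas the seeds of the miR-199a arms are equal at 3. In human and mouse a further gene copy yields the same miR-199a arms, and a probe does not tell such copies apart.

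Before these levels are read, the arrays need a description. The arrays labelled saline did not show the usual miRNA content of cortex, since 5 of the 7 neuronal miRNAs examined (miR-9, miR-128, miR-137, miR-153 and miR-218a) were below 30 on all 5 of them. The summed intensity of the 7 was -45.1 to 1241 on the saline arrays and 34742 to 115174 on the morphine arrays. The median local background was 84 to 348 in the saline group and 63 to 141 in the morphine group, and 180 to 281 against 260 to 419 rat probes reached 30. Since each array group is also a treatment group, these properties of the arrays and the treatment cannot be told apart in any value below, and the part of the neuronal difference in the members' levels was not tested.

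The miR-199a-5p intensity was high on every saline array and close to the detection limit on every morphine array. It read 3531, 7982, 3525, 10475 and 12198 in saline rats 1 to 5, against 6.0, -0.980, 32.2, 21.1 and 47.3 in morphine rats 1 to 5. The groups were far apart, with the lowest saline array (3525) above the highest morphine array (47.3). The saline mean was 7542 ± 3959 (SD, n = 5) and the morphine mean 21.1 ± 19.5 (SD, n = 5). Before scaling, all 5 saline arrays and 1 of the 5 morphine arrays were at 30 or more.

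miR-199a-3p was measured on the saline arrays at intensities from 94.3 to 698 and was below 30 before scaling on every morphine array. Saline rats 1 to 5 gave 698, 206, 654, 94.3 and 452, whereas morphine rats 1 to 5 gave -38.4, -44.7, 32.2, 2.77 and -21.3. Morphine array 3, the highest of its group, was at 26.2 before scaling, and the groups did not overlap. The saline mean was 421 ± 267 and the morphine mean -13.9 ± 31.6 (SD, n = 5 each). Taken against the higher of the detection limit, the lowest detected signal and the probe's own value on each morphine array, miR-199a-3p was at least 10.5-fold lower in the morphine group. This bound holds for the processing used here, in which the log2 difference was -3.45. Over 22 alternatives, of which 10 left out 1 array, that difference ranged from -5.44 to -1.75.

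miR-214 was the only member that was detected in every rat. Saline rats 1 to 5 gave 5054, 7466, 4800, 8375 and 5728, whereas morphine rats 1 to 5 gave 1476, 1331, 439, 4701 and 350.4. Morphine array 4 stood next to the lowest saline array (4800), and the other 4 morphine arrays were well below all saline arrays. The saline mean was 6285 ± 1565 and the morphine mean 1659 ± 1774 (SD, n = 5 each), and without morphine array 4 the morphine mean was 899 ± 587 (SD, n = 4). On the log2 scale the difference was -2.52, a 5.72-fold lower geometric mean in the morphine group, and it was -3.01 without morphine array 4. The gap between the groups rested on the scaling of array 4, because before scaling its 5521 exceeded saline arrays 3 and 5, which were at 4858 and 4936.

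**Figure D1:**
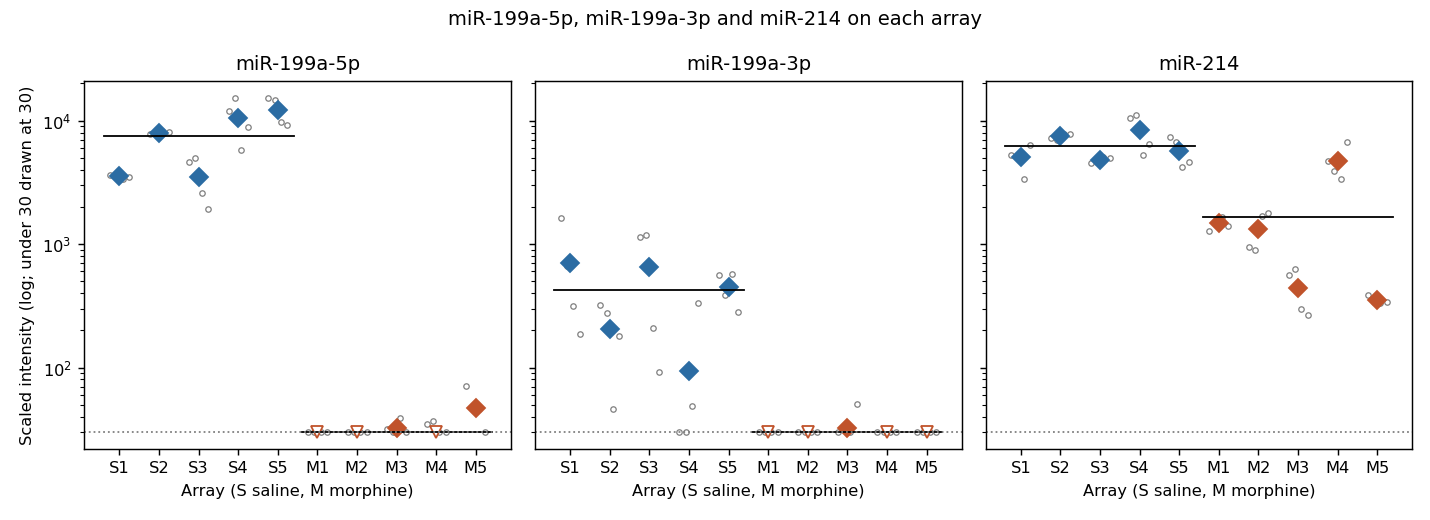
Scaled intensity (log axis) of miR-199a-5p, miR-199a-3p and miR-214 on saline (S1 to S5, blue) and morphine arrays (M1 to M5, orange); filled diamonds are means of the 4 spots, grey circles the single spots, black lines group means, and anything under 30 is drawn at the dotted line, open triangles for array means. miR-199a-5p lay between 3525 and 12198 in the saline group and at no more than 47.3 in the morphine group, whereas miR-214 on M4 (4701) came close to the lowest saline array (4800).

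In all 3 members the highest morphine array was below the lowest saline array. Over the 301 rat probes that reached 30 on at least 5 arrays, 8.31% had groups that did not overlap in this direction. In the limma fit over the same probes, 11.6% were lower and 32.6% higher in the morphine group at an adjusted p under 0.05. Because the members were chosen with these values known, nothing is read from their number against that share. Among the 301 log2 differences, ordered from the lowest, miR-199a-5p was at position 1, miR-199a-3p at 5 and miR-214 at 13. In bulk tissue a lower intensity can come from fewer cells of a type or from less RNA per cell, and these cannot be told apart.

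The sizes of these log2 differences have different limits. With values under 30 set to 30, the log2 difference was -7.63 for miR-199a-5p, of which the detection limit allowed at most 7.79 below the saline level. For miR-199a-3p it was -3.45, with 3.47 as the most that could be measured. Both therefore stood at the limit, and their fitted size describes the distance from the saline level to 30. For miR-214 a fall of 7.68 could have been measured, and the morphine mean was still 5.16 log2 units above the limit.

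**Figure D2:**
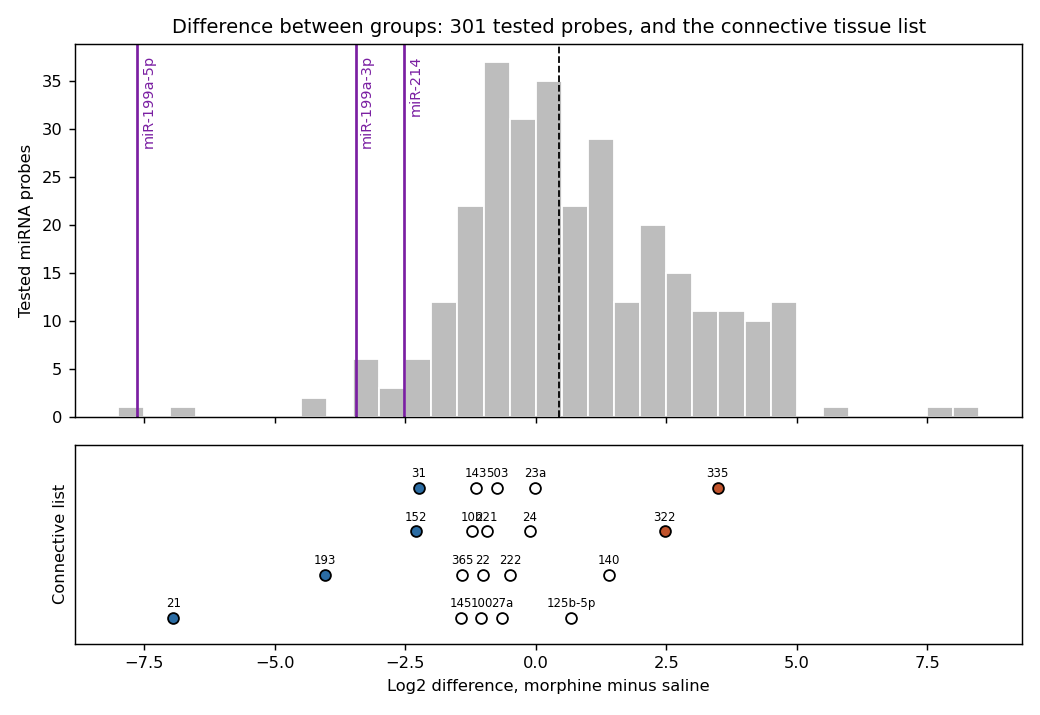
The upper panel counts the 301 tested rat probes by log2 difference, morphine minus saline, with purple lines at miR-199a-5p (-7.63), miR-199a-3p (-3.45) and miR-214 (-2.52) and a dashed line at the median of all (0.45). In the lower panel each point is a tested miRNA of the connective tissue list at its log2 difference (blue lower, orange higher, white not past the limma test; height has no meaning), with 4 lower and 2 higher (8 and 0 with cyclic loess).

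Within the saline group the members varied by unequal amounts. The highest saline array was 3.46 times the lowest for miR-199a-5p, 7.41 times for miR-199a-3p and 1.74 times for miR-214. On the log2 scale the SD over the 5 saline arrays was 0.86, 1.23 and 0.35, against a median of 0.83 over all tested probes. As means of the 4 spots, the arms of miR-199a did not follow each other from rat to rat. miR-199a-5p was highest on saline array 5 and lowest on saline arrays 3 and 1 (3525 and 3531), whereas miR-199a-3p was highest on saline arrays 1 and 3 (698 and 654) and lowest on saline array 4 (94.3). The order of miR-199a-3p depended on the spots read. Before scaling, its highest saline array was array 1 over blocks 1 to 18 (1254.5) and array 5 over blocks 19 to 36 (371). The part of this spot spread in the unlike order of the arms was not tested. miR-214 was highest on saline array 4 and lowest on saline array 3. Within the morphine group only miR-214 could be ordered, and its highest array was 13.4 times its lowest.

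The spread between the 4 spots of a probe on 1 array gives the measurement error inside an array. For miR-199a-5p the coefficient of variation (CV) of the spots was 2.25% to 42.7% on the saline arrays, and all 20 saline spots but only 6 of 20 morphine spots reached 30. For miR-214 it was 5.69% to 34.8% on the saline and 6.89% to 41.4% on the morphine arrays, with all 40 spots at 30 or more. The high miR-214 value of morphine array 4 was shared by its spots, which read 5577, 4605, 3951 and 7952 before scaling.

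miR-199a-3p was measured less well. Its spot CV was 31.1% to 171% on the saline arrays, with 18 of 20 saline spots and 1 of 20 morphine spots at 30 or more. On saline array 1 the spots read 1775, 734, 348 and 205, and on saline array 4 they read -11, 8, 39 and 267. The spots of the first 18 blocks were brighter than those of blocks 19 to 36 by 4.54 times on saline array 1, 2.65 times on saline array 2 and 7.66 times on saline array 3. Over 96 well detected probes the same ratio had medians of 1.21, 1.15 and 1.11 on these arrays, and 95th percentiles of 2.77, 2.42 and 2.28. The ratio of miR-199a-3p was thus above the 95th percentile on all 3, whereas on saline array 5 its spots lay closer together, at 482, 335, 497 and 245.

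The foreground signal, read before the local background is subtracted, separated the groups for both miR-199a arms but not for miR-214. It was 3654 to 10860 in the saline and 91 to 173 in the morphine group for miR-199a-5p, 354 to 932 and 67.5 to 125 for miR-199a-3p, and 4938 to 7182 and 451.5 to 5585 for miR-214, whose highest morphine value was on array 4. All 5 saline arrays had each member above all 7 negative-control probes of the array. On the morphine arrays miR-214 was above all negative controls on 5 of 5 arrays, miR-199a-5p on 3 of 5 and miR-199a-3p on 1 of 5. The brightest spot of any member was at 13396, below saturation. With the median negative control of each array as the baseline, an alternative chosen after seeing the data, the miR-199a-5p mean was 8131 ± 3615 against 48.2 ± 20.6 (SD, n = 5 each). On that baseline the mean of miR-199a-3p was 607 ± 293 against 16.0 ± 21.7 and that of miR-214 was 7065 ± 1656 against 1692 ± 1816 (SD, n = 5 each).

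**Figure D3:**
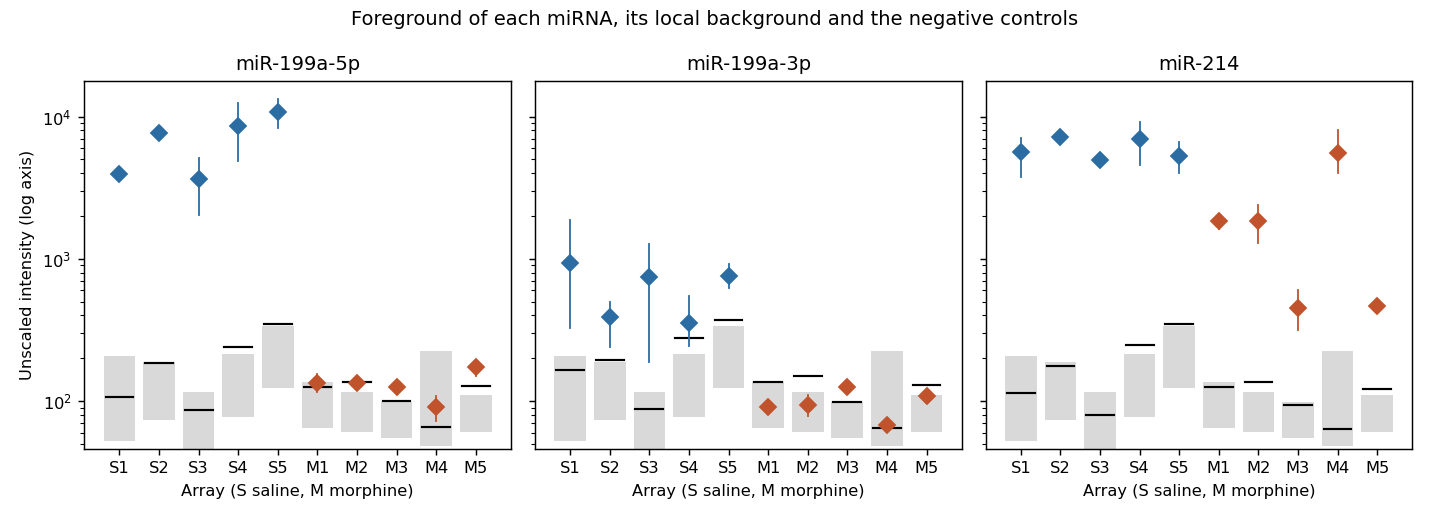
Unscaled foreground intensity (log axis) of each member on the 10 arrays, as the mean of 4 spots (diamonds) with their range (coloured lines), beside the local background of its spots (black lines) and the range of the 7 negative-control probes (grey bars). miR-214 stood above the negative controls on every array, and miR-199a-3p on 1 of 5 morphine arrays.

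Morphine array 4 was the one array on which a member departed from its group. It had the lowest local background of all arrays (63) and the highest negative-control foreground of the morphine group (225). It gave the highest value of the 5 morphine arrays for 31.2% of the 301 tested probes, and for 2 of the 20 tested miRNAs of the connective tissue list described below. Morphine array 5 was highest for more of them, 35.2% of the tested probes and 9 of the 20. The summed intensity of that list was lower on morphine array 4 (16137) than on morphine arrays 1, 2, 3 and 5 (20797, 18019, 56067 and 63610). The neuronal sum of morphine array 4 (34742) was also the lowest of the group. The part of these properties in its miR-214 value was not tested.

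Other products of the same stretch of chromosome 13 were compared next. miR-214* is the opposite arm of the miR-214 hairpin, and miR-3120 is a miRNA made from the strand opposite to miR-214, in the direction of Dnm3 itself. They are shown because they come from the hairpin of miR-214, or from the strand opposite to it, without sharing its seed.
miR-214*: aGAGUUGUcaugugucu
miR-3120: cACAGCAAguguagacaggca
miR-214* lies at chr13:77121656-77121672 on the plus strand and miR-3120 at chr13:77121672-77121692 on the minus strand, where its complement is inside the 108-base Mir214 hairpin. miR-3120 and miR-214 share a run of 9 bases outside the seeds. Compared position by position, none of the 7 seed positions is equal, but the letters ACAGCA open miR-214 and begin at base 2 of miR-3120.

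Neither of these products was bright on any array. The intensity of miR-214* was -216 to -19.0 in the saline and -38.0 to 40.0 in the morphine group, and it reached 30 only on morphine array 4. The difference of 97.6 intensity units did not pass a two-sided exact permutation test (p = 0.0556, adjusted over both products 0.0556). miR-3120 was at -207 to 29.9 in the saline and 1.50 to 59.6 in the morphine group, and reached 30 on 1 saline and 4 morphine arrays. Its difference of 114 intensity units passed the exact permutation test (p = 0.0238, adjusted p = 0.0476), with the means at -75.9 and 37.9, the morphine group being the higher. In the limma fit, with values under 30 set to 30, miR-3120 had a log2 difference of 0.48 and did not pass (adjusted p = 0.382). On the negative-control baseline miR-3120 lost its exact permutation call (difference 20.3, adjusted exact p = 0.214). There miR-214* passed (difference 14.2, adjusted exact p = 0.0159). The foreground of miR-3120 was 98.5 to 153 against 132 to 171 and did not pass (exact permutation p = 0.0714), and the call was lost when any 1 morphine array was left out (adjusted exact p 0.0556 to 0.103). The local background, with a median of 188 over the saline and 125 over the morphine arrays, enters both differences, and its part in them was not tested.

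Among the mature entries used here, none outside the members had the seed of a member, and the mature sequence of miR-761 was not among them. The miR-214 seed letters CAGCAGG occur in 8 of 419 rat hairpins (1.91%, searched on the transcribed strand), of which 1 is the hairpin of miR-761, a miRNA that target-prediction databases group with miR-214. The letters begin at base 16 of that hairpin. miR-761, singled out after its values were seen, was at 155 to 2138 in the saline group (1133 ± 741, SD, n = 5) and at 195 to 869 in the morphine group (482 ± 328, SD, n = 5). The ranges overlapped, and the limma log2 difference of -1.10 (SE 0.73) did not pass (adjusted p = 0.256). It was -1.82 with an adjusted p of 0.0250 in the limma fit without saline array 5, and this was the one alternative in which it passed.

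To set the members beside other miRNAs of connective tissue, a list of 22 miRNAs known from fibroblasts, pericytes, smooth muscle and cartilage was followed. Of the 20 that could be tested, 4 were lower in the morphine group, 2 were higher and 14 missed the threshold of the limma fit (adjusted p of 0.05 over 301 probes). The share of all tested probes past the test was 44.2%. The median log2 difference of the list was -0.98, and that of all tested probes was 0.45. The summed intensity of the list overlapped between the groups, at 20487 to 99290 on saline and 16137 to 63610 on morphine arrays. miR-10a-5p, miR-322 and miR-450a were below 30 on all saline arrays, and miR-450a also on all morphine arrays.

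The lower miRNAs of the list were miR-21, miR-193, miR-152 and miR-31. miR-21, which is known to rise in fibrosis and in reactive glia, was at 1675 to 22788 on the saline and 6.60 to 119 on the morphine arrays. Its log2 difference was -6.95 (SE 0.74, limma adjusted p = 1.42e-05), so that it shared with miR-199a-5p a high saline level and a morphine level near the limit. miR-193 was at 773 to 2560 and -42.5 to 182 (log2 difference -4.04, adjusted p = 0.000216), and miR-152, a relative of miR-148 that represses the DNA methyltransferase Dnmt1, at 101 to 386 and -48.8 to 44.4 (-2.30, adjusted p = 0.00129). In each of these, as in the members, the groups did not overlap. miR-31 was also lower (-2.23, adjusted p = 0.0171), at 250 to 678 in the saline group and 5.09 to 348 in the morphine group, and its groups overlapped.

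The higher miRNAs were miR-322 and miR-335. miR-322, the rodent counterpart of human miR-424 and a promoter of muscle differentiation, was below 30 on all saline arrays and at 64.3 to 403 on the morphine arrays. It passed the filter through its 5 morphine arrays alone, which set its direction. It was at least 5.02-fold higher in the morphine group (limma adjusted p = 0.00200), but its log2 difference was 0.59 with cyclic loess (adjusted p = 0.437) and 0.86 with a floor of 100 (adjusted p = 0.112). miR-335, which is made from an intron of Mest, was at -331 to 58.3 on the saline arrays, with 1 of 5 at 30 or more, and at 38.4 to 2327 on the morphine arrays, all 5 at 30 or more (limma adjusted p = 0.00774). The groups of miR-335 overlapped. No miRNA of the list was higher past the threshold with cyclic loess (0 higher, 8 lower), with a floor of 100 (0 and 3), or in the methods' t-test at its unadjusted threshold (0 and 5) or after Benjamini-Hochberg adjustment (0 and 2).

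At the other end were miR-23a and miR-27a, which are made from 1 cluster, miR-24, which has the hairpins Mir24-1 and Mir24-2, and miR-222. miR-24 was at 1210 to 4945 on the saline and 956 to 4865 on the morphine arrays (log2 difference -0.11, SE 0.57, limma adjusted p = 0.886). miR-23a was at 361 to 6856 and 300 to 2592 (-0.01, SE 0.85, adjusted p = 0.993). The differences of miR-222 (-0.49, adjusted p = 0.719) and miR-27a (-0.65, adjusted p = 0.669) did not pass either, and the sign of all 4 turned under 1 or more alternatives. miR-143 and miR-145, a smooth muscle pair, had log2 differences of -1.15 and -1.43, neither past the threshold (limma adjusted p = 0.475 and 0.0876).

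Markers of other cell types moved with the groups too. Among all 301 tested probes, 32.6% were higher and 11.6% lower in the morphine group. A marker below 30 on all 5 saline arrays was tested only if all 5 morphine arrays reached 30, so the filter set its direction. This held for miR-9, miR-128, miR-137, miR-153, miR-218a, both endothelial markers, miR-338, miR-144, miR-142-3p and miR-142-5p. miR-223 and miR-219-5p missed the filter, with 1 and 3 morphine arrays at 30 or more. All 7 neuronal miRNAs were higher in the morphine group, and miR-124, the main miRNA of neurons, had a log2 difference of 5.75 (limma adjusted p = 8.33e-07). Both endothelial markers were higher, with summed intensities of -490 to -58.3 on saline and 398 to 5018 on morphine arrays, and both were below 30 on every saline array. miR-126, the leading one, was at least 26.0-fold higher (adjusted p = 0.00178). All 5 tested of the 6 blood and immune markers were higher, with sums of -686 to 168 and 1420 to 8547, and miR-451 of red blood cells had a log2 difference of 4.59 (adjusted p = 0.000251). Of the 2 oligodendrocyte markers 1 could be tested and was higher, and both were below 30 on every saline array, miR-219-5p among them. The oligodendrocyte sum was -774 to -35.3 on saline and 120 to 1654 on morphine arrays.

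Markers of muscle and epithelium were mixed. With 2 and 3 of them tested, no share is read from these counts beside the 11.6% of all tested probes that were lower. The 4 muscle markers summed to -172 to 1590 on saline and -42.5 to 154 on morphine arrays, and 1 of the 2 tested was lower. That was miR-133b, at 67.0 to 199 on the saline and -13.5 to 66.4 on the morphine arrays (log2 difference -1.91, limma adjusted p = 0.00446), and its groups did not overlap. miR-206 of skeletal muscle was at 10.7 to 1565 on the saline and 27.6 to 180 on the morphine arrays, and its log2 difference of -2.29 did not pass (adjusted p = 0.0629). It passed in 6 alternatives, at -3.35 without saline array 5 (adjusted p = 0.00119), the array on which it was at 10.7. miR-1 was below 30 on all arrays of both groups, and miR-133a on all saline arrays and all but 1 of the morphine arrays. The 7 epithelial markers summed to -749 to 482 and -230 to 839, and 1 of the 3 tested was lower. The epithelial marker that passed was miR-200c (log2 difference -1.75, adjusted p = 0.0338), whose call was lost under most alternatives. The part of these cell types in the members' levels was not tested.

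The probes whose pattern over the 10 arrays was most like that of the members were found by the root mean square (RMS) difference of log2 values, each probe centred on its own mean, from the mean profile of the 3 members. Over 298 probes the closest was miR-27b*, the minor arm of the miR-27b hairpin, with an RMS difference of 0.87. Its intensity was 120 to 1613 on the saline and -31.5 to 20.0 on the morphine arrays, at least 17.1-fold lower (limma adjusted p = 0.000119). This bound holds for the processing used here, in which the log2 difference was -4.17. Over 23 alternatives that difference ranged from -6.03 to -2.02. The probe passed the filter through its 5 saline arrays alone. miR-27b* was followed by miR-30c-1* (RMS 1.01, log2 difference -3.11, adjusted p = 0.000465), miR-3544 (RMS 1.04, -3.23, adjusted p = 0.000979), miR-193 (RMS 1.12) and miR-186* (RMS 1.13, -3.32, adjusted p = 0.00364). All 5 fell in the morphine group, as the measure favours probes that do, and miR-193 was the one of them that was on the connective tissue list. Because these probes were picked by their pattern over the same arrays, nothing is read from their p-values.

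The members were followed through 22 alternatives, of which 10 left out 1 array and 12 changed the processing of the spots. Among the 12, the median of the spots and the deposited value table held equal values. The log2 difference was negative for each member in all of them, at -8.37 to -4.65 for miR-199a-5p, -5.44 to -1.75 for miR-199a-3p and -3.25 to -1.50 for miR-214. The groups of miR-199a-5p did not overlap in any of the 22. Those of miR-199a-3p overlapped in 4, including the median of the spots, the equal deposited value table and a detection limit of 100. Those of miR-214 overlapped in 7, among them normexp background correction and quantile normalization. In the 10 alternatives that left out 1 array no member overlapped, so that all overlaps were among the 12 changes of processing.

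**Figure D4:**
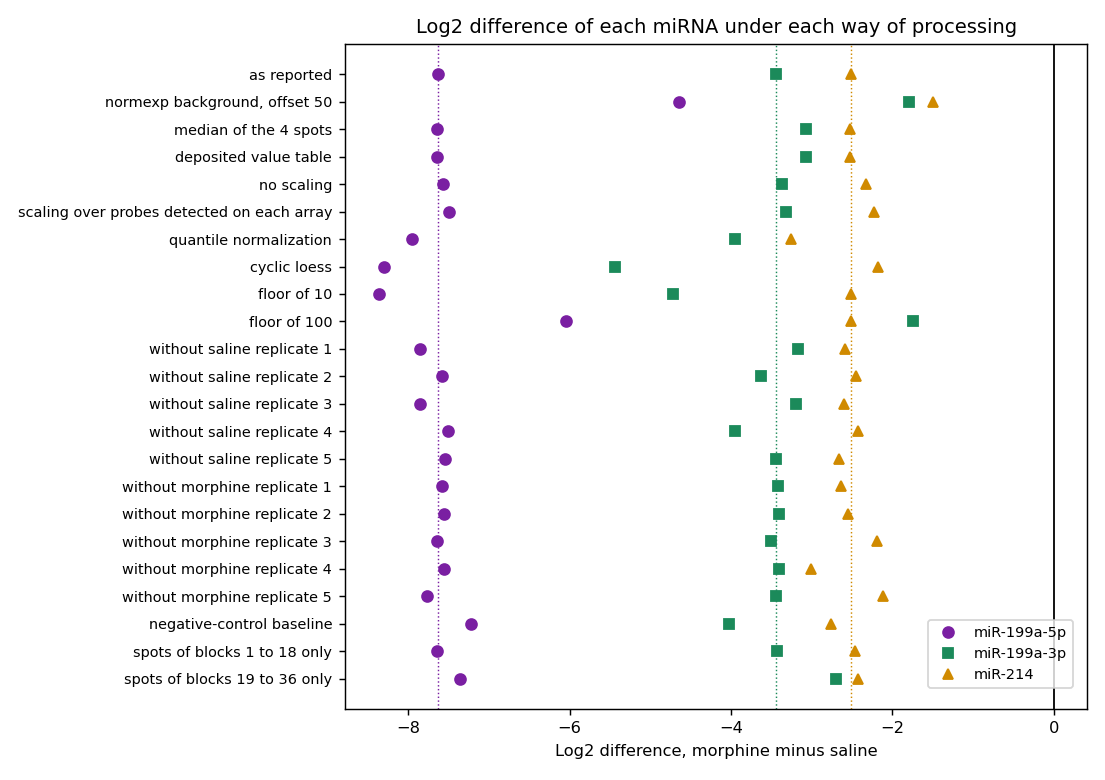
Log2 difference, morphine minus saline, of miR-199a-5p (circles), miR-199a-3p (squares) and miR-214 (triangles) as reported (top row) and under 22 alternatives, of which 10 left out 1 array. Dotted lines mark the reported values. All points lie below 0, with miR-214 between -3.25 and -1.50.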

How the data were processed

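The authors labelled total RNA with Hy3 (the labels list biotin as the label), hybridized it to a miRCURY LNA array and read the spots in GenePix. The deposited spots carry foreground and background-subtracted intensity, 4 per probe, with no scaling between arrays; in the deposited value table, 6790 of 6790 rat values equalled the median of the spots (within 1e-06). No source used here gives the slide or scan date, and batches were therefore not examined. Whether rats shared a litter or cage is likewise unstated, so p-values measure the spread between these samples.

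Background-subtracted spots were averaged, divided by the array median over the 120 rat probes at 30 or more on all 10 arrays (factors 807 to 1281), and brought back to intensity by the geometric mean of the factors. Values under 30 were set to 30 before log2. Detection used unscaled values. The fit (limma 3.58.1, R 4.3.3, two-sided, Benjamini-Hochberg, checked on simulated data) covered the 301 probes that reached 30 on 5 or more arrays; all 3 members passed, the miR-199a arms through their 5 saline arrays. Of the same-locus probes, miR-214* missed the filter and miR-3120 passed it. Both were tested with exact permutation over 5 against 5 arrays (smallest p 0.00794), and miR-3120 was also in the limma fit. An "at least" fold divides the bright group's mean of log2 values by, per array, the highest of 30, the lowest detected signal and the probe's own value. It is a bound for this processing only. Sequences were matched by name to RefSeq in Python 3.11.15 with pandas 2.3.3; all 3 members and both same-locus probes matched.

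The members and lists were chosen with earlier results of these data known. Named were the members, the same-locus probes, the 4 smallest and 4 largest p of the connective tissue list, the first marker of each other list and the 5 most similar probes; miR-761, miR-143, miR-145, miR-31, miR-335 and miR-133b were added after their values were seen. The number of arrays limits the precision. Alternatives were background, spot summary, scaling, floor, filter, replicate block, the methods' t-test and leaving out each array.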

Additional observations from a re-analysis of the deposited data

Results flagged for a closer look

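In 6 of 48 groups of 5 arrays examined, 1 array lay far from the other 4, by the gap to its nearest neighbour over the whole range; chance alone marks about 1 group in 20. miR-214 was at 4701 on morphine array 4 and at 350.4 to 1476 on the other morphine arrays. On the same array miR-214* was at 40.0 (others -38.0 to -15.9) and miR-200c at 139 (others -33.9 to -12.9). On saline array 5, miR-152 was at 386 (others 101 to 155), miR-222 at 8143 (others 456 to 881) and miR-23a at 6856 (others 361 to 784).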

How the results depend on the processing

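The log2 difference of miR-199a-5p was -4.65 with normexp, -8.30 with cyclic loess, -8.37 with a floor of 10 and -6.05 with a floor of 100, and that of miR-199a-3p was -1.80, -5.44, -4.71 and -1.75. Leaving out 1 array gave -7.86 to -7.51, -3.95 to -3.17 and, for miR-214, -3.01 to -2.11. Of all tested probes 133 passed (98 higher, 35 lower), and 102 to 136 with 1 array left out. Requiring 30 on all arrays left 33 calls of 120 probes tested. The methods' t-test with Benjamini-Hochberg gave 60 (15 higher, 45 lower), and at the methods' unadjusted threshold with a fold criterion 128 (38 higher, 90 lower). The split was 69 higher to 49 lower with quantile normalization and 46 to 54 with cyclic loess, and the median of all tested probes moved from 0.45 to -0.25 and -0.27. It was 0.67 with scaling over probes detected on each array and 0.59 with none. With the negative-control baseline, chosen after seeing the data as were the settings using only part of the spots, 173 of 422 passed (92 higher, 81 lower).

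On the connective tissue list, 6 calls became 3 with a floor of 100, 0 of 10 with 30 required on all arrays (33 calls over all probes there) and 2 with the methods' t-test after Benjamini-Hochberg; leaving out 1 array gave 6 to 7. With a floor of 100 the call of miR-152 was lost (adjusted p = 0.122), and that of miR-322 was lost there and with cyclic loess (0.112 and 0.437). For the same-locus probes, 1 call became 0 with normexp, the median of the spots and the deposited value table, and 2 with scaling over probes detected on each array; leaving out 1 array gave 0 to 2. Quantile, loess, floor, filter and block settings were not run for these 2 probes, nor was the filter or block for the members, which have no test. The cause of these changes was not tested. The miR-214* difference was -23.5 with normexp.

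Log2 differences whose sign turned were those of miR-222 (0.37 with normexp, 0.12 without saline array 5, and -1.07 to 0.39 over single arrays left out), miR-23a (0.54 with normexp, 0.18 without scaling, 0.28 with scaling over each array's detected probes, and -0.41 to 0.62 with 1 array left out), miR-24 (0.64, 0.078 and 0.18 in the same order, 0.19 with cyclic loess, and -0.39 to 0.24) and miR-27a (0.075 without morphine array 4, and -1.61 to 0.075 with 1 array left out). None passed the test.

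Samples with the same replicate number did not deviate together (correlations -0.40 to 0.05) and share only a number. With the replicate block 107 probes passed (81 higher, 26 lower), as did 6 of the connective tissue list, and of the named miRNAs miR-200c was no longer past the threshold (adjusted p = 0.0672). Dim probes are limited by the signal over background: values under 30 have no order, which sets the size of the miR-199a differences.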
